A study of Homo sapiens with 6 samples.

Results

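SPRY2, which encodes a feedback inhibitor of receptor tyrosine kinase signalling, and ATF3, which encodes a stress-induced transcription factor, were described in Caco-2 cells carrying 1 of 2 hairpins against FAM46A or a scramble hairpin. Both genes were chosen by their measured values in these same arrays. Their differences are therefore given as a description, with no test. The genes were found by symbol among the probe sets that carry 1 gene symbol, together with 6 partners of SPRY2 in ERK feedback: SPRY4, SPRED1, SPRED2, DUSP4, DUSP5 and DUSP6. Of these 8 genes 6 were measured, by 7 of 48144 probe sets, and they made up 6 of the 14884 genes with a symbol. SPRED1 and SPRED2 had no probe set with 1 symbol and were not analysed here. The probe sets were 16780069 for SPRY2 (Entrez Gene 10253), 16677278 for ATF3 (467), 17001063 for SPRY4 (81848), 17075973 for DUSP4 (1846), 16768297 for DUSP6 (1848), and 16709128 and 16718386 for DUSP5 (1847).

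Caco-2 is an established human colon carcinoma line used as a model of the intestinal epithelium. The cells received lentivirus expressing either a scramble hairpin, the hairpin FAM46A-shRNA#2, or the hairpin FAM46A-shRNA#4, and were harvested 17 days after infection, so that all 3 groups carried a lentiviral hairpin and none was left uninfected. Each group had 2 arrays, and the question was which transcripts change when FAM46A is depleted. The labels call the arrays of a group biological replicates without saying whether the infections were separate, so a p-value here reflects the scatter among these arrays, which may be technical. FAM46A itself was not analysed here, and the depth of its knockdown by either hairpin is not known from these values. The deposited values were centred on each probe set's median over the 6 arrays, and their scale was read as log2, which no label states. A value of 0 is thus the middle of the 6 arrays, not absence of the transcript, and a group that lies between the other groups has a mean at or near 0 by construction. Each difference below is a difference of 2 group means on the log2 scale, and the number after ± is its standard error in the limma fit (n = 2 arrays per group throughout).

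Sprouty proteins such as SPRY2 and SPRY4 restrain the signal that runs from receptor tyrosine kinases through RAS, RAF and MEK to the kinases ERK1 and ERK2. The dual-specificity phosphatases act further down: DUSP6 removes phosphate from ERK in the cytoplasm, and DUSP4 and DUSP5 do so in the nucleus. Genes of both families are themselves transcribed in response to ERK activity, so that they form a negative feedback loop. ATF3 is a basic leucine zipper factor of the ATF/CREB family that is low in resting cells and is induced by many stresses, among them the integrated stress response through ATF4 and the JNK and p38 kinases.

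Promoter sequences from RefSeq (GRCh38.p14), each running from 250 bases before an annotated transcription start to 50 bases after it, were at hand for 4 of the 6 measured members, in 7 windows. The most upstream windows of SPRY2, DUSP6 and ATF3 are shown because these 3 genes held the widest differences between the hairpins. SPRY2 is read from chr13:80341077-80341376 on the minus strand, DUSP6 from chr12:89352452-89352751 on the minus strand, and ATF3 from chr1:212565157-212565456 on the plus strand. Capitals mark matches, on either strand, to any of 5 motifs.
SPRY2: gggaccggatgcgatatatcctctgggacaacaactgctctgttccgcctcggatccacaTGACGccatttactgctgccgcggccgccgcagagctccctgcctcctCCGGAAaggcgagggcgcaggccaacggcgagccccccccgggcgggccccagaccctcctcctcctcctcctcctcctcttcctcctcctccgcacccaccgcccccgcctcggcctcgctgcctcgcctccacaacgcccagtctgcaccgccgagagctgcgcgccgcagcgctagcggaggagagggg
DUSP6: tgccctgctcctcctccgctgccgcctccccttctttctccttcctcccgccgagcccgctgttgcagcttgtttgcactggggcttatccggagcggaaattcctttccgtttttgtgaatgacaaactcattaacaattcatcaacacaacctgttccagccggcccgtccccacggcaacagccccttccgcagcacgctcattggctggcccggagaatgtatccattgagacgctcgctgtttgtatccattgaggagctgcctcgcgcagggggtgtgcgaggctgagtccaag
ATF3: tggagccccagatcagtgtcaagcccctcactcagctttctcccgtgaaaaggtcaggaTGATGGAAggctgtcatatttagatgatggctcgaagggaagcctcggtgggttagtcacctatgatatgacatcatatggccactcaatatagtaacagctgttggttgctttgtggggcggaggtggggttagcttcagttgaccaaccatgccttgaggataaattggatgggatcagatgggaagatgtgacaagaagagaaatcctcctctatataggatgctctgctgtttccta
The motifs searched were the cAMP response element TGACGTCA, its core TGACG (which lies inside the element), the AP-1 site TGANTCA, the C/EBP-ATF composite core TGATGNAA and the ETS core CCGGAA. The SPRY2 window held TGACG at position -190 from the start and CCGGAA at position -142. The ATF3 window held TGATGNAA at position -191, and the DUSP6 window held none of the 5 motifs. The single window of SPRY4 held TGACG at position -68, and the remaining windows of SPRY2 and ATF3 held none. Bases outside these windows were not searched, so motifs elsewhere at ATF3 or the other genes would not be seen. Over all 35116 windows in the table, 24.6% held TGACG, 17.2% CCGGAA, 7.71% TGANTCA, 3.62% TGATGNAA and 1.85% TGACGTCA. A match is a description of the letters only, since the arrays measured no binding and do not show which start was used.

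SPRY2 was highest with shRNA#2. It stood at -0.34 and -0.62 on the scramble arrays, at 0.98 and 1.09 on the shRNA#2 arrays, and at -0.02 and 0.02 on the shRNA#4 arrays. The 3 groups did not overlap, and shRNA#4 lay between scramble and shRNA#2. With shRNA#2 the SPRY2 value exceeded scramble by 1.52 ± 0.10, a 2.87-fold difference that ranked 18 from the highest of 14884 genes. With shRNA#4 the excess over scramble was 0.48 ± 0.10, or 1.40-fold, at rank 974. The hairpins differed from each other by 1.03 ± 0.10 in SPRY2, 2.05-fold higher with shRNA#2, at rank 19. After quantile normalization that last difference was 1.72. These are bulk samples, in which more cells with the transcript and more transcript per cell cannot be told apart.

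ATF3 had its highest values with shRNA#4. The scramble arrays gave -0.20 and -0.10, the shRNA#2 arrays 0.01 and -0.01, and the shRNA#4 arrays 0.97 and 1.09. The groups did not overlap, but scramble and shRNA#2 lay close together and shRNA#4 stood apart from both. With shRNA#4 ATF3 exceeded scramble by 1.18 ± 0.06, a 2.26-fold difference at rank 65 from the highest. With shRNA#2 it exceeded scramble by 0.15 ± 0.06, or 1.11-fold, at rank 3024; without scramble replicate 1 this difference was 0.10. In the direct comparison of the hairpins ATF3 was lower with shRNA#2 by a log2 difference of -1.03 ± 0.06, rank 37 from the lowest, which makes it 2.04-fold higher with shRNA#4. SPRY2 and ATF3 were thus displaced in opposite directions between the hairpins: 20 genes were higher with shRNA#2 by a log2 difference of 1 or more, SPRY2 among them, and 40 were lower by as much, ATF3 among them.

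**Figure D1:**
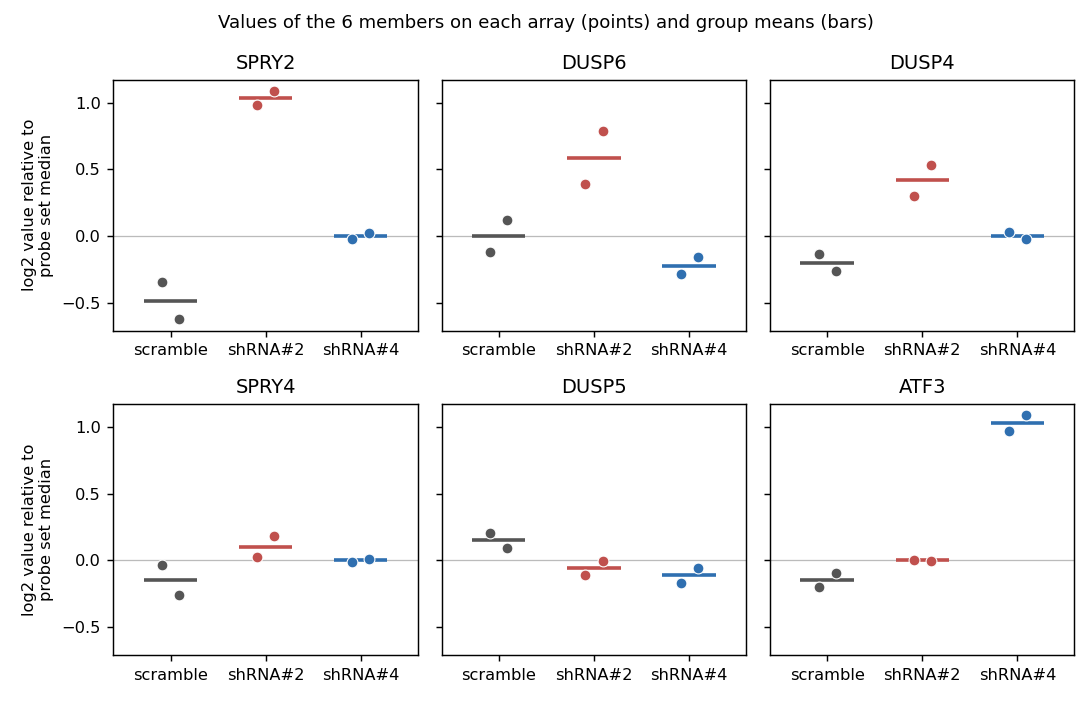
Centred log2 value (vertical axis) of SPRY2, DUSP6, DUSP4, SPRY4, DUSP5 and ATF3 on each of the 6 arrays (points), with the mean of each group of 2 arrays as a bar. SPRY2, DUSP6 and DUSP4 are highest on the shRNA#2 arrays, where SPRY2 reaches 0.98 and 1.09, and ATF3 is highest on the shRNA#4 arrays at 0.97 and 1.09.

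The partners of SPRY2 were taken by symbol, whatever their values, though with earlier results of these arrays known. For them the fit over all genes gives a test (limma with Benjamini-Hochberg adjustment over 14884 genes, called at adjusted p under 0.05). With shRNA#2 against scramble 2 of the 4 measured partners were called, DUSP4 and DUSP6, both higher, while 21.6% of all genes were called. With shRNA#4 against scramble 1 of 4 was called, DUSP5, lower, against 26.1% of all genes. Between the hairpins 2 of 4 were called, DUSP4 and DUSP6, both higher with shRNA#2, against 15.3% of all genes. With 4 genes these counts are too small to be read against those shares.

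DUSP6, the cytoplasmic ERK phosphatase, stood at -0.12 and 0.12 with scramble, at 0.39 and 0.79 with shRNA#2, and at -0.29 and -0.16 with shRNA#4. Both shRNA#2 arrays were above all others, and both shRNA#4 arrays were the lowest of the 6. DUSP6 rose with shRNA#2 by 0.59 ± 0.14 over scramble (limma adjusted p = 0.0351). With shRNA#4 its difference from scramble was -0.22 ± 0.14 (adjusted p = 0.359), with a 95% interval of -0.58 to 0.13. Between the hairpins DUSP6 was higher with shRNA#2 by 0.81 ± 0.14, 1.75-fold (adjusted p = 0.0168), rank 50 from the highest of all genes. The call against scramble was lost without scramble replicate 1 (0.47, adjusted p = 0.156), scramble replicate 2 (0.70, 0.0517 as adjusted p), shRNA#2 replicate 2 (0.39, adjusted p = 0.112), or either shRNA#4 array (0.59, adjusted p = 0.0582). The call between the hairpins was lost without shRNA#2 replicate 2 (0.61, adjusted p = 0.0523), shRNA#4 replicate 1 (0.74, adjusted p = 0.083) or shRNA#4 replicate 2 (0.87, adjusted p = 0.0633).

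DUSP4, a nuclear phosphatase of ERK and of other MAP kinases, stood at -0.14 and -0.26 with scramble, at 0.30 and 0.53 with shRNA#2, and at 0.03 and -0.03 with shRNA#4. As with SPRY2, the groups did not overlap and shRNA#4 lay in the middle. DUSP4 rose with shRNA#2 by 0.62 ± 0.09 over scramble, 1.53-fold (limma adjusted p = 0.00557), and this call held under each of the 14 alternative settings tried at the same threshold, its largest adjusted p being 0.0285. With shRNA#4 the difference from scramble was 0.20 ± 0.09 (adjusted p = 0.17), with a 95% interval of -0.02 to 0.42. The hairpins differed by 0.42 ± 0.09, 1.33-fold higher with shRNA#2 (adjusted p = 0.0289). That last call was lost without shRNA#2 replicate 2 (0.30, adjusted p = 0.101), shRNA#4 replicate 1 (0.44, adjusted p = 0.0916) or shRNA#4 replicate 2 (0.39, adjusted p = 0.128).

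SPRY4, the sprouty relative of SPRY2, stood at -0.04 and -0.26 with scramble, 0.02 and 0.18 with shRNA#2, and -0.01 and 0.01 with shRNA#4. Its arrays kept the same order of groups as those of SPRY2, but over a narrower span. None of its 3 comparisons was called. The difference from scramble was 0.25 ± 0.09 with shRNA#2 (adjusted p = 0.11; 95% interval 0.03 to 0.47) and 0.15 ± 0.09 with shRNA#4 (adjusted p = 0.32; 95% interval -0.07 to 0.37). Between the hairpins the difference was 0.10 ± 0.09 (adjusted p = 0.577), with a 95% interval of -0.12 to 0.32.

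DUSP5, the nuclear phosphatase that is specific for ERK, ran the other way. It stood at 0.21 and 0.09 with scramble, at -0.11 and -0.01 with shRNA#2, and at -0.17 and -0.06 with shRNA#4. Every hairpin array lay below both scramble arrays, and the hairpins overlapped. DUSP5 fell with shRNA#4 by 0.26 on the log2 scale (SE 0.07; limma adjusted p = 0.0407), while the difference with shRNA#2 was -0.21 ± 0.07 (adjusted p = 0.094) and that between the hairpins 0.05 ± 0.07 (adjusted p = 0.74; 95% interval -0.12 to 0.23). The DUSP5 value is the mean of 2 probe sets, and they did not give the same size: against scramble with shRNA#4, probe set 16709128 differed by -0.46 (adjusted p = 0.0453) and probe set 16718386 by -0.06 (adjusted p = 0.61). The shRNA#4 call was lost without any 1 of the 6 arrays, the difference then running from -0.32 to -0.20 and the adjusted p reaching 0.178.

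**Figure D2:**
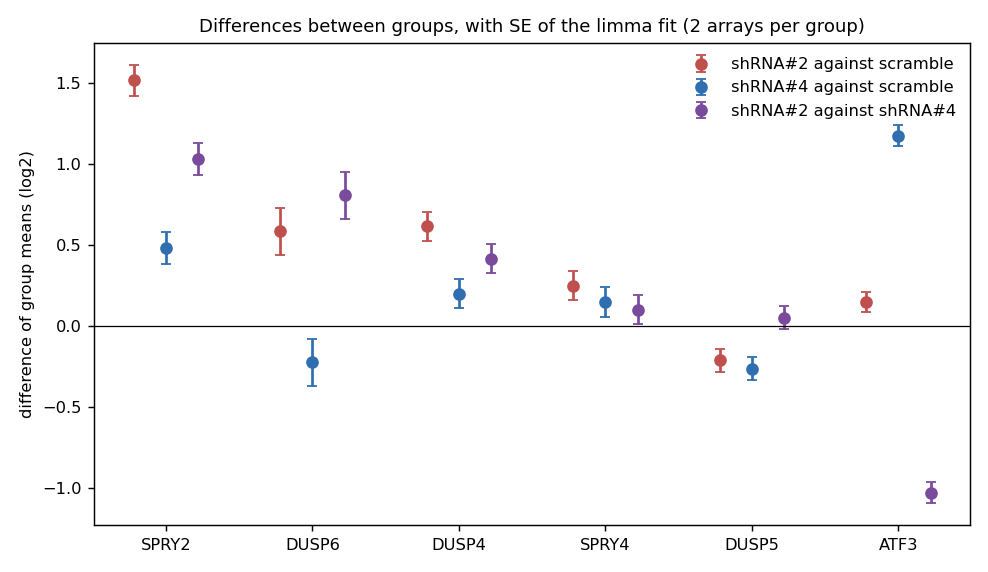
Difference of group means in log2 (vertical axis) for each member in the 3 comparisons, with bars of 1 standard error of the limma fit (2 arrays per group). SPRY2, DUSP6 and DUSP4 lie above 0 for shRNA#2 against shRNA#4, at 1.03, 0.81 and 0.42, SPRY4 and DUSP5 lie near 0, and ATF3 lies at -1.03.

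**Figure D3:**
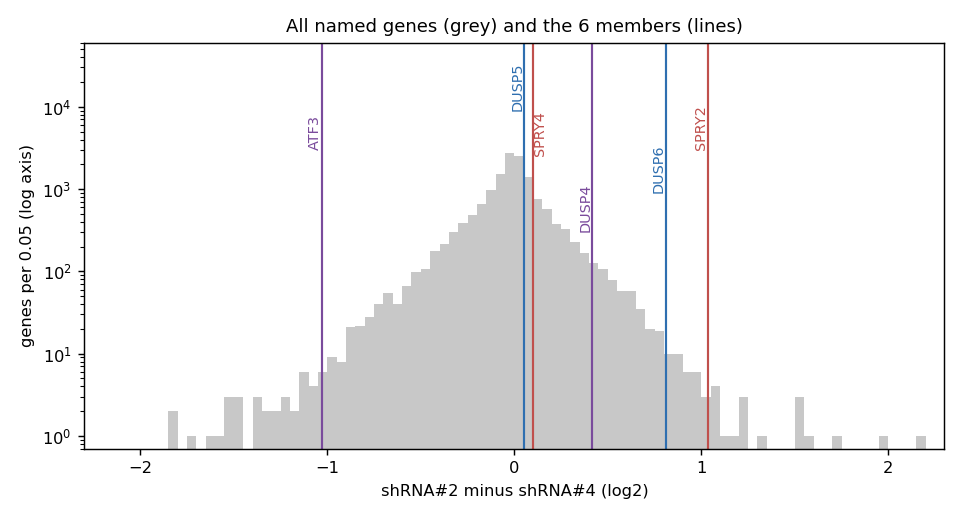
Number of genes per 0.05 of log2 difference between the hairpins (logarithmic vertical axis) against shRNA#2 minus shRNA#4 (horizontal axis) for all 14884 genes, with the 6 members as vertical lines. SPRY2 and ATF3 lie in the thin tails on opposite sides at 1.03 and -1.03, DUSP6 lies at 0.81, and SPRY4 and DUSP5 lie within the central peak.

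The other negative regulators of the pathway did not follow SPRY2 as a group. Of 21 listed genes 16 were measured. With shRNA#2 against scramble 3 rose and 4 fell (12.1% and 9.54% of all genes), and with shRNA#4 7 rose and 2 fell (15.7% and 10.4% of all genes). Between the hairpins 1 was higher and 6 were lower with shRNA#2, where 6.64% of all genes were higher and 8.63% lower. The median difference between the hairpins was -0.12 over the list and -0.01 over all genes. The 6 lower genes became 2 without shRNA#2 replicate 2 and 3 without shRNA#2 replicate 1 or shRNA#4 replicate 1. With shRNA#4 against scramble the 7 that rose became 4 without scramble replicate 1 or shRNA#4 replicate 2, and the 2 that fell became 0 without shRNA#4 replicate 1 and 1 without scramble replicate 2. With shRNA#2 against scramble the 3 that rose became 1 without scramble replicate 1 or shRNA#2 replicate 1, and the 4 that fell became 2 without scramble replicate 1 or shRNA#2 replicate 2.

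IL17RD, an inhibitor of FGF receptor signalling that is also known as SEF, was the only gene of this list called higher with shRNA#2 than with shRNA#4. It stood at -0.25 and -0.24 with scramble, 0.59 and 0.61 with shRNA#2, and -0.03 and 0.03 with shRNA#4, the order of groups seen for SPRY2. IL17RD rose with shRNA#2 by 0.85 ± 0.05 (adjusted p = 0.000452), and the hairpins differed by 0.60 ± 0.05 (adjusted p = 0.00262). With shRNA#4 it rose by 0.25 ± 0.05 (adjusted p = 0.0135), a call lost in 3 of the 14 alternatives. DUSP1, a nuclear phosphatase of stress-activated MAP kinases as well as ERK, was highest with shRNA#4, as ATF3 was. It stood at -0.05 and 0.05 with scramble, -0.37 and -0.16 with shRNA#2, and 0.46 and 0.71 with shRNA#4. DUSP1 was lower with shRNA#2 than with shRNA#4 by a log2 difference of -0.85 ± 0.11 (adjusted p = 0.00594). It rose with shRNA#4 against scramble by 0.59 ± 0.11 (adjusted p = 0.0102), a call lost without scramble replicate 1 (adjusted p = 0.0554).

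ERRFI1, which binds and inhibits the EGF receptor kinase, rose with shRNA#4 by 0.91 ± 0.08 (adjusted p = 0.00105) and with shRNA#2 by 0.37 ± 0.08 (adjusted p = 0.0285). The second of these calls was lost after quantile normalization, without either scramble array or without shRNA#2 replicate 1, with an adjusted p of up to 0.135. DUSP9, an ERK phosphatase of the cytoplasm, fell with both hairpins, by 0.97 on the log2 scale with shRNA#2 (SE 0.09; adjusted p = 0.00164) and by 0.50 with shRNA#4 (SE 0.09; adjusted p = 0.0105, and 0.0603 without shRNA#4 replicate 1). DUSP8, a phosphatase of JNK and p38, was picked out after its values were seen: it differed by -0.64 ± 0.07 between the hairpins (adjusted p = 0.00439).

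Upstream of the feedback genes, growth factor ligands switch on the receptors. Of 18 measured members of a list of 21, 2 rose and 2 fell with shRNA#2 and 4 rose with shRNA#4, where 21.6% and 26.1% of all genes were called in either direction. None was called lower with shRNA#4 in the limma fit, where 1 was lower at an unadjusted p under 0.05. EREG, the EGF family ligand epiregulin, rose with both hairpins, by 1.24 ± 0.19 with shRNA#2 (adjusted p = 0.00718) and 1.60 ± 0.19 with shRNA#4 (adjusted p = 0.00231). FGF9 rose by 0.62 ± 0.06 with shRNA#2 and 0.66 ± 0.06 with shRNA#4 (adjusted p = 0.00132 and 0.000735). FGF18 rose with shRNA#4 by 0.53 ± 0.08 (adjusted p = 0.00534), with a difference of 0.03 ± 0.08 for shRNA#2 (adjusted p = 0.885). EGF itself was not called, at 0.30 ± 0.13 and 0.12 ± 0.13. FGF19 and PDGFA, the 2 ligands that fell with shRNA#2 (-0.28 and -0.29), were chosen after their values were seen: neither was called without scramble replicate 1 or without either shRNA#2 array. FGF18 was also the 1 ligand called lower with shRNA#2 than with shRNA#4 (-0.50 ± 0.08, adjusted p = 0.0121), where 8.63% of all genes were lower. That FGF18 call was lost without either shRNA#2 array.

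Among 15 measured receptor tyrosine kinases of 17 listed, 3 rose and 5 fell with each hairpin; of all genes 12.1% rose and 9.54% fell with shRNA#2, and 15.7% rose and 10.4% fell with shRNA#4. EGFR fell by 0.79 with shRNA#2 and by 0.85 with shRNA#4 on the log2 scale (SE 0.11; adjusted p = 0.00467 and 0.0028). ERBB3, a partner of EGFR with little kinase activity of its own, fell by 0.69 and by 0.79 (SE 0.05; adjusted p = 0.000673 and 0.000357). EPHA2, an ephrin receptor, rose by 0.54 ± 0.08 with shRNA#2 and 1.04 ± 0.08 with shRNA#4 (adjusted p = 0.00606 and 0.000633). INSR, the insulin receptor, fell with both, by 0.43 with shRNA#2 and by 0.99 with shRNA#4 (SE 0.05; adjusted p = 0.00256 and 0.000258), and was the 1 receptor called higher with shRNA#2 than with shRNA#4, by 0.55 ± 0.05 (adjusted p = 0.00264). Between the hairpins 6.64% of all genes were higher and 8.63% lower with shRNA#2. EPHA2 was the 1 receptor called lower, at -0.49 ± 0.08 (adjusted p = 0.0127). That call was lost without either shRNA#2 array or without shRNA#4 replicate 2 (adjusted p up to 0.0801). Fewer receptors rose with shRNA#4 whichever array was left out. With shRNA#2 fewer rose without scramble replicate 2 or either shRNA#2 array. Fewer fell with shRNA#2 without either scramble array or shRNA#2 replicate 1. With shRNA#4 fewer fell without either scramble array or shRNA#4 replicate 1.

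The adaptors and kinases of the cascade carry the signal from the receptors to ERK. Of 16 measured genes among 26 listed, none was called between the hairpins in the limma fit, where 1 was higher and 2 were lower with shRNA#2 at an unadjusted p under 0.05 and 15.3% of all genes were called. Against scramble 6 rose with shRNA#2 (12.1% of all genes), and 6 rose and 2 fell with shRNA#4 (15.7% and 10.4% of all genes). The median difference was 0.12 with shRNA#2 and 0.14 with shRNA#4. KSR1, a scaffold that brings RAF, MEK and ERK together, rose with shRNA#4 by 0.69 ± 0.07 (adjusted p = 0.00162) and with shRNA#2 by 0.42 ± 0.07 (adjusted p = 0.0113, and 0.0646 without shRNA#2 replicate 2). MRAS, a RAS-related GTPase, rose with shRNA#4 by 0.69 ± 0.10 (adjusted p = 0.0039) and with shRNA#2 by 0.35 ± 0.10 (adjusted p = 0.0494). The second of these MRAS calls was lost in 8 of the 14 alternatives. SHC1, an adaptor that links receptors to RAS, rose by 0.42 ± 0.08 with shRNA#2 (adjusted p = 0.0126, and up to 0.07 without either shRNA#2 array) and by 0.45 ± 0.08 with shRNA#4 (adjusted p = 0.00828). MAPK3, which encodes ERK1, fell with shRNA#4 by 0.46 on the log2 scale (SE 0.10; adjusted p = 0.0223), a call lost without either scramble array or without shRNA#4 replicate 1 (adjusted p up to 0.0959), and RRAS, the other gene that fell, was chosen after its values were seen (-0.42 ± 0.11, adjusted p = 0.0407). The RRAS call was lost after quantile normalization, with a replicate block, without either scramble array and without shRNA#4 replicate 1 (adjusted p up to 0.174). The 6 that rose with shRNA#2 became 0 without shRNA#2 replicate 2, 2 without scramble replicate 1, and 3 without scramble replicate 2 or shRNA#2 replicate 1. The 2 that fell with shRNA#4 became 0 without either scramble array or without shRNA#4 replicate 1, and the 6 that rose became 4 without scramble replicate 1.

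Transcripts known to respond to ERK were taken from a list of 21, of which 16 were measured. With shRNA#2 4 rose and 1 fell (12.1% and 9.54% of all genes), and with shRNA#4 6 rose (15.7% of all genes). Between the hairpins 2 were higher and 3 lower with shRNA#2 (6.64% and 8.63% of all genes). With shRNA#4 none was called lower in the limma fit, and 3 were lower at an unadjusted p under 0.05. The median difference from scramble was 0.21 with either hairpin, and that over all genes was 0.00 with either. CCND1, cyclin D1, rose by 1.03 ± 0.10 with shRNA#2 and 0.96 ± 0.10 with shRNA#4 (adjusted p = 0.00182 and 0.00157). MYC rose by 0.80 ± 0.09 and 0.82 ± 0.09 (adjusted p = 0.00296 and 0.00201). ETV4, an ETS factor of the PEA3 group, was ordered like SPRY2: it rose with shRNA#2 by 0.64 ± 0.05 (adjusted p = 0.00115) and was higher with shRNA#2 than with shRNA#4 by 0.43 ± 0.05 (adjusted p = 0.00564). With shRNA#4 ETV4 rose by 0.20 ± 0.05 (adjusted p = 0.0362), a call lost in 8 of the 14 alternatives. ETV5, its close relative, was the other gene called higher with shRNA#2 (0.55 ± 0.10, adjusted p = 0.0172). ETV5 was chosen after its values were seen and lost that call without either shRNA#2 array or without shRNA#4 replicate 2 (adjusted p up to 0.0987).

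EPHA4, an ephrin receptor, rose with both hairpins, by 0.82 ± 0.10 with shRNA#2 (adjusted p = 0.004) and 1.92 ± 0.10 with shRNA#4 (adjusted p = 0.000311), and was lower with shRNA#2 than with shRNA#4 by a log2 difference of -1.10 ± 0.10 (adjusted p = 0.00304). KLF6, a zinc finger factor that was chosen after its values were seen, moved in opposite directions, falling by 0.44 on the log2 scale with shRNA#2 (adjusted p = 0.00343) and rising by 0.43 with shRNA#4 (adjusted p = 0.00256). The immediate early genes FOS and EGR1 were also picked after their values were seen, and neither was called in any of the 3 comparisons. FOS differed from scramble by 0.29 ± 0.11 with shRNA#2 and -0.01 ± 0.11 with shRNA#4. EGR1 differed by 0.34 ± 0.17 and 0.22 ± 0.17. The calls of this list changed with 1 array left out. Between the hairpins fewer were higher without either shRNA#2 array or shRNA#4 replicate 2, and fewer were lower without shRNA#2 replicate 1 or either shRNA#4 array. Fewer rose with shRNA#4 whichever array was left out. A fall with shRNA#4 was called without scramble replicate 2 or shRNA#4 replicate 1.

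The AP-1 and ATF/CREB factors, the family of ATF3 and its dimer partners, are basic leucine zipper proteins that bind DNA in pairs. Of 24 measured factors among 32 listed, 5 rose and 3 fell with shRNA#2 (12.1% and 9.54% of all genes), and 9 rose and 4 fell with shRNA#4 (15.7% and 10.4% of all genes). Between the hairpins 2 were higher and 9 lower with shRNA#2, beside 6.64% and 8.63% of all genes, and the median difference was -0.15 over the list and -0.01 over all genes. The list was chosen with earlier results of these arrays known, so its direction is no independent evidence. The 9 lower became 3 without shRNA#2 replicate 1, 6 without shRNA#2 replicate 2 and 4 without either shRNA#4 array, and the 2 higher became 1 without any of those 4 arrays. The 9 that rose with shRNA#4 became 5 without scramble replicate 2 and 6 without scramble replicate 1 or shRNA#4 replicate 2. The 5 that rose with shRNA#2 became 1 without either shRNA#2 array and 2 without either scramble array, and the 3 that fell became 2 without scramble replicate 1 or either shRNA#2 array.

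JUN, the AP-1 subunit that pairs with ATF3, differed from scramble by -0.09 ± 0.10 with shRNA#2 (adjusted p = 0.625) and rose with shRNA#4 by 0.76 ± 0.10 (adjusted p = 0.00312). The hairpins differed in JUN by -0.85 ± 0.10 (adjusted p = 0.00508), and both JUN calls held under all 14 alternatives. DDIT3, which encodes CHOP and was chosen after its values were seen, rose with shRNA#4 by 0.47 ± 0.07 (adjusted p = 0.00407), with 0.09 ± 0.07 for shRNA#2 (adjusted p = 0.444). CREB3L1 and ATF6B are bound to the membrane of the endoplasmic reticulum until they are cut, and both ran opposite to ATF3. CREB3L1 fell with shRNA#4 by 0.71 on the log2 scale (SE 0.12; adjusted p = 0.00786). ATF6B, chosen after its values were seen, fell with shRNA#4 by 0.61 (SE 0.07; adjusted p = 0.00232) and was higher with shRNA#2 than with shRNA#4 by 0.62 ± 0.07 (adjusted p = 0.00508).

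Other members of the family fell with both hairpins. CREB3L3, a factor of liver and intestine that is also held at the endoplasmic reticulum, fell by 1.43 with shRNA#2 and by 1.44 with shRNA#4 on the log2 scale (SE 0.12; adjusted p = 0.00114 and 0.000713). FOSL2, an AP-1 subunit, fell by 0.93 and by 0.91 (SE 0.06; adjusted p = 0.000666 and 0.000454). The difference between the hairpins was 0.01 ± 0.12 for CREB3L3 and -0.01 ± 0.06 for FOSL2 (adjusted p = 0.968 and 0.952).

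**Figure D4:**
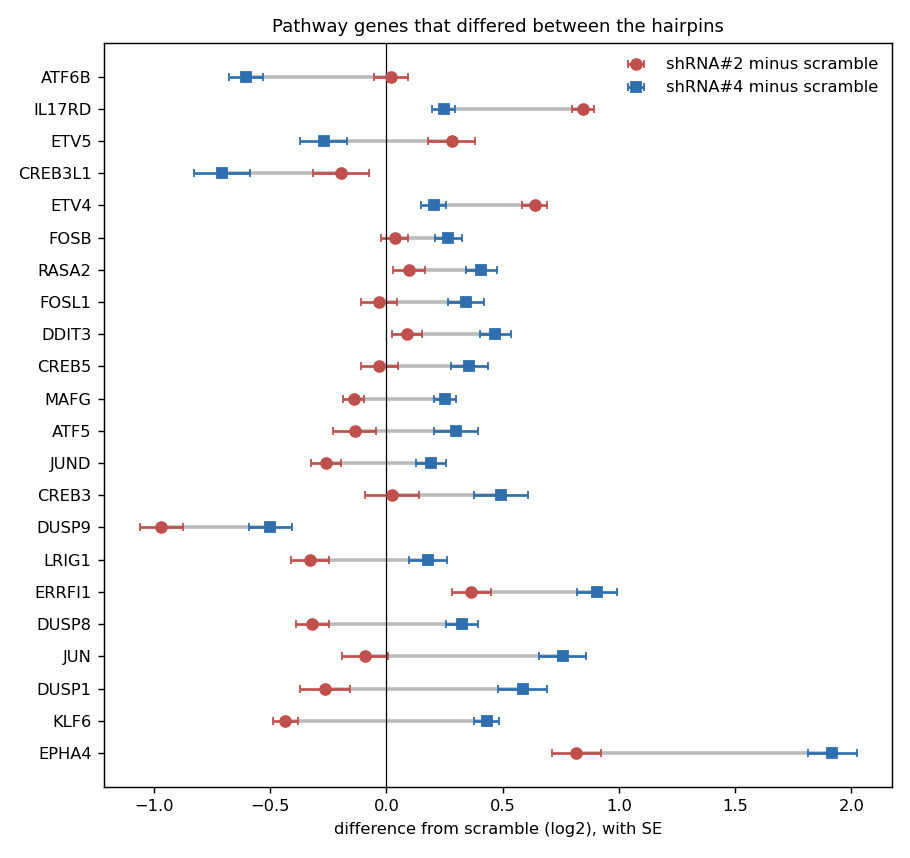
Difference from scramble in log2 (horizontal axis) with shRNA#2 (red circles) and shRNA#4 (blue squares), with bars of 1 standard error, for the 22 genes that were called between the hairpins in 3 lists (other negative regulators, ERK-responsive transcripts, AP-1 and ATF/CREB factors). The genes were picked by that call: 5 are higher and 17 lower with shRNA#2, and the genes run from ATF6B at the top (0.62 between the hairpins) to EPHA4 at the bottom (-1.10).

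The integrated stress response, the route through which ATF4 induces ATF3, is read out by enzymes of amino acid synthesis and by stress factors. Of 15 measured among 25 listed, 9 rose with shRNA#2 and 10 rose with shRNA#4, beside 12.1% and 15.7% of all genes; in either comparison none was lower in the limma fit, nor at an unadjusted p under 0.05. The median difference from scramble was 0.49 with shRNA#2 and 0.45 with shRNA#4. ASNS, asparagine synthetase, rose by 1.39 ± 0.13 and 1.38 ± 0.13 (adjusted p = 0.00172 and 0.00117). PSAT1, an enzyme of serine synthesis, rose by 1.43 ± 0.14 and 1.25 ± 0.14 (adjusted p = 0.00181 and 0.00186). STC2, a secreted glycoprotein, rose by 0.70 ± 0.16 and 0.88 ± 0.16 (adjusted p = 0.025 and 0.00938); its shRNA#2 call was lost without either shRNA#2 array (adjusted p up to 0.109) and its shRNA#4 call without shRNA#4 replicate 1 (adjusted p = 0.0549). The 9 that rose with shRNA#2 became 6 without either shRNA#2 array.

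Between the hairpins 1 gene of this response was called higher and 3 lower with shRNA#2, beside 6.64% and 8.63% of all genes. VLDLR, a lipoprotein receptor, rose with both hairpins but less with shRNA#2, by 0.83 ± 0.09 against 1.46 ± 0.09 (adjusted p = 0.00245 and 0.000391), and the hairpins differed by -0.63 ± 0.09 (adjusted p = 0.00852, and up to 0.0597 without shRNA#2 replicate 1 or shRNA#4 replicate 2). CTH, an enzyme of cysteine synthesis that was chosen, like EIF2AK3, after its values were seen, was the 1 called higher with shRNA#2, by 0.49 ± 0.08 (adjusted p = 0.0146, and up to 0.0762 without shRNA#2 replicate 2 or shRNA#4 replicate 1). EIF2AK3, the kinase PERK, and DDIT3 were the other genes called lower, at -0.22 ± 0.05 (adjusted p = 0.0335, and up to 0.158 over the alternatives, lost without any 1 array) and -0.38 ± 0.07 (adjusted p = 0.0153, and up to 0.0801 without shRNA#2 replicate 1 or either shRNA#4 array). ATF4, the factor at the centre of the response, was chosen after its values were seen and rose with shRNA#4 by 0.41 ± 0.05 (adjusted p = 0.00319). With shRNA#2 ATF4 rose by 0.23 ± 0.05 (adjusted p = 0.028), a call lost after quantile normalization and without either scramble or either shRNA#2 array (adjusted p up to 0.141), and ATF4 was not called between the hairpins (-0.18 ± 0.05, adjusted p = 0.0867). The median of the list between the hairpins was 0.00, and the part of this response in the ATF3 difference was not tested.

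Markers of cell identity moved with the hairpins as well. Centred values cannot show whether a marker is present, so the epithelial identity of the cells could not be checked, only its shift. The mean over 9 measured intestinal epithelial markers of 12 listed was 0.36 and 0.27 on the scramble arrays. On the hairpin arrays it lay between -0.13 and 0.02. Of the 9 markers 4 fell with each hairpin, where 9.54% of all genes fell with shRNA#2 and 10.4% with shRNA#4. With shRNA#4 1 marker rose, where 15.7% of all genes rose. The brush border genes SI, which encodes sucrase-isomaltase, and VIL1, which encodes villin, fell with both hairpins. The log2 differences with shRNA#2 and shRNA#4 were -1.96 and -1.03 for SI and -0.48 and -0.74 for VIL1. The keratin gene KRT20 also fell with both hairpins, at -1.17 ± 0.24 and -1.20 ± 0.24 (limma adjusted p = 0.0184 and 0.0136). Its shRNA#2 call was lost without either shRNA#2 array, and its shRNA#4 call without either shRNA#4 array. The marker that rose was the keratin gene KRT18, by 0.49 ± 0.12 with shRNA#4 (limma adjusted p = 0.0315). That call was lost in 5 of the 14 alternatives, quantile normalization among them. KRT8, another keratin gene, was not called, at 0.07 ± 0.11 and 0.18 ± 0.11. The mean over 6 immune markers of 10 listed was 0.43 and 0.68 on the scramble arrays and between -0.15 and -0.05 on the hairpin arrays, and 4 of the 6 fell with each hairpin, beside the same shares of all genes. CD68 and LYZ led this fall, with differences of -1.88 and -2.14 for CD68 and -1.29 and -1.03 for LYZ. CD14 and TYROBP lay the other way and were not called, at 0.31 and 0.36 for CD14 and 0.11 and 0.05 for TYROBP. Fewer immune markers fell with shRNA#2 without shRNA#2 replicate 1. With shRNA#4 fewer of them fell without scramble replicate 2 or either shRNA#4 array. Fewer epithelial markers fell with shRNA#2 whichever array was left out. With shRNA#4 fewer epithelial markers fell without either scramble array or either shRNA#4 array. The mean over 4 fibroblast markers of 10 listed lay between -0.05 and 0.08 on all arrays, but its members went both ways. VIM, vimentin, rose with shRNA#4 by 0.42 ± 0.06 (adjusted p = 0.00327). THY1 fell with both hairpins, by 0.19 and by 0.21 on the log2 scale (SE 0.05; adjusted p = 0.0446 and 0.0286), and lost both calls without any 1 array. Between the hairpins SI and VIM were the only markers called, both lower with shRNA#2 (-0.93 ± 0.20 and -0.28 ± 0.06), where 8.63% of all genes were lower. Both calls were lost without either shRNA#2 array or shRNA#4 replicate 1. The part of these markers in the differences of SPRY2, ATF3 and the partners was not tested.

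The genes whose 6 array values lay nearest to those of SPRY2 and ATF3, by Euclidean distance over the 6 arrays among protein-coding genes, are given as a description, because closeness to a chosen gene fixes their pattern. Nearest to SPRY2 were GXYLT2, a xylosyltransferase, at a distance of 0.355, then the matrix proteoglycan gene VCAN at 0.463, the basement membrane gene NID2 at 0.479, SYTL5 at 0.523 and GPR137B at 0.543. With shRNA#2 these 5 exceeded scramble by between 1.12 (NID2) and 1.44 (GXYLT2), and with shRNA#4 by between 0.19 (NID2) and 0.56 (GPR137B). Nearest to ATF3 were POMK, a kinase of protein O-mannose, at 0.216, STXBP6 at 0.242, FRY at 0.301, ANXA1, which encodes annexin A1, at 0.301 and CAPN6 at 0.336. Their shRNA#4 values exceeded scramble by between 1.05 (STXBP6) and 1.38 (FRY), and their shRNA#2 values by between 0.07 (CAPN6) and 0.32 (FRY). No gene of the pathway lists was among these 10 neighbours.

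**Figure D5:**
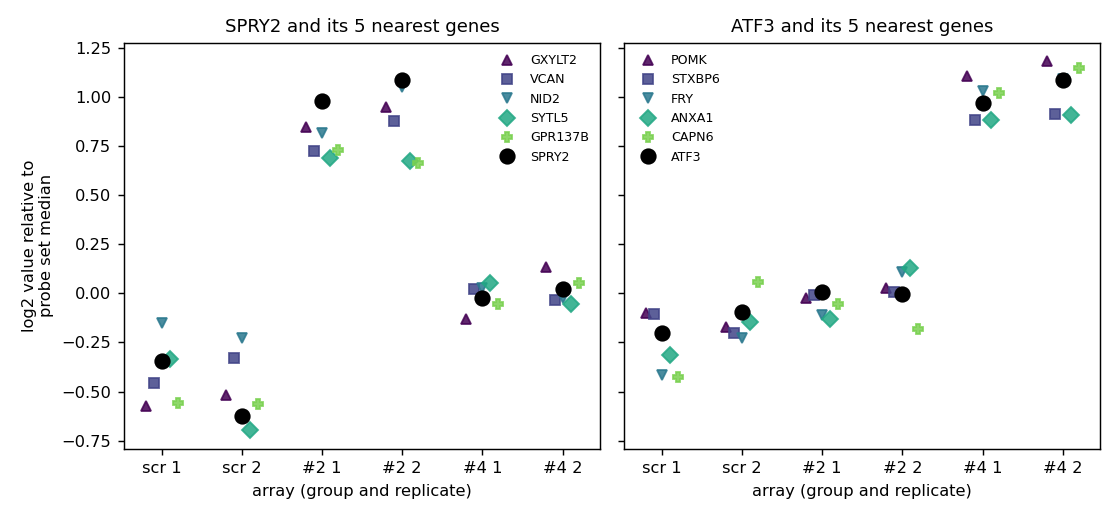
Centred log2 value (vertical axis) on each of the 6 arrays (horizontal axis, scr for scramble) of SPRY2 with its 5 nearest genes and of ATF3 with its 5 nearest genes, black for the chosen gene. The SPRY2 neighbours are highest on the shRNA#2 arrays, between 0.66 and 1.05, and the ATF3 neighbours on the shRNA#4 arrays, between 0.88 and 1.18.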

How the data were processed

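RNA from 6 Caco-2 samples (3 groups of 2) was labelled from 100 ng with the GeneChip WT PLUS kit and hybridised to Affymetrix arrays, per the labels' protocols. The deposited table holds 1 value per probe set and array, taken here as log2 values that the authors centred on each probe set's median (within 1e-06 on every row); normalization, log base and genome build were not given in the sources used here. Signal level and depth cannot be recovered, so dim probes were not filtered, and the number of arrays limits the precision. Array interquartile ranges ran from 0.0714 to 0.0908.

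GEO's platform annotation gave 16098 probe sets 1 symbol, 0 several and 32046 none; probe sets of a gene were averaged, giving 14884 genes. All 6 arrays entered 1 limma fit (version 3.58.1, R 4.3.3; lmFit, eBayes without trend), with Benjamini-Hochberg adjustment over all genes and calls at adjusted p under 0.05. The fit was tested on simulated data. Residual degrees of freedom were 3 and prior degrees 3.09, and the median SE was 0.0657.

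The members and gene lists were chosen with earlier results of these data known. Named were all members, up to 4 genes per list with the largest absolute difference from scramble, any gene of a list with 3 or fewer called, and the 5 nearest genes to SPRY2 and to ATF3; other genes are said to be chosen after their values were seen. Alternatives were each probe set on its own, quantile normalization, array median centring, a robust prior, array weights and a replicate block. Others were only the arrays compared, protein-coding genes only, adjusted p under 0.01, and each array left out in turn. For the value of a gene with several probe sets, the first alternative used only the lowest-numbered probe set. The gene's other probe sets were not tried there. Promoters came from RefSeq GRCh38.p14.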

Additional observations from a re-analysis of the deposited data

Results flagged for a closer look

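The 2 hairpins against the same gene gave unequal results, tested by the contrast of shRNA#2 with shRNA#4 in the limma fit. Of the partners of SPRY2, DUSP6 was higher with shRNA#2 by 0.81 (log2, adjusted p = 0.0168) and DUSP4 by 0.42 (adjusted p = 0.0289). Of the listed genes, those called higher with shRNA#2 were MAP2K6 (0.64), ATF6B (0.62), IL17RD (0.60), INSR (0.55), ETV5 (0.55), CREB3L1 (0.51), CTH (0.49), ETV4 (0.43) and IFIH1 (0.39), each with its log2 difference of shRNA#2 minus shRNA#4. Those called lower with shRNA#2 were EPHA4 (-1.10), SI (-0.93), KLF6 (-0.87), DUSP1 (-0.85), JUN (-0.85), DUSP8 (-0.64), VLDLR (-0.63), ERRFI1 (-0.54), LRIG1 (-0.51), FGF18 (-0.50), EPHA2 (-0.49), DUSP9 (-0.47), CREB3 (-0.47), JUND (-0.46), ATF5 (-0.44), MAFG (-0.39), CREB5 (-0.39), DDIT3 (-0.38), FOSL1 (-0.38), RASA2 (-0.31), VIM (-0.28), FOSB (-0.23), MAPKAPK3 (-0.22) and EIF2AK3 (-0.22). Of the 14 alternatives, 11 lost the call of MAPKAPK3, 10 that of FOSB (the replicate block among them), 8 those of CREB3 and EIF2AK3, and 6 that of RASA2. CREB3L1, DUSP9 and IFIH1 lost theirs in 4. DUSP4, DUSP6, ATF5, CREB5, FOSL1, ETV5, DDIT3 and EPHA2 did so in 3. CTH, ERRFI1, FGF18 and LRIG1 did so in 2, and JUND in 1. The losses of SI, VIM and VLDLR are given above. No cause of these differences was tested.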

How the results depend on the processing

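SPRY2 and ATF3 kept their directions in all 3 comparisons under every alternative. After quantile normalization SPRY2 differed by 2.09 (shRNA#2 against scramble) and 1.72 (shRNA#2 against shRNA#4), and ATF3 by 1.27 (shRNA#4 against scramble) and -1.16 (shRNA#2 against shRNA#4). At adjusted p under 0.01 the genes called were 1575 with shRNA#2, 2122 with shRNA#4 and 769 between the hairpins, and the partners called were 1, 0 and 0. With only the arrays compared, 1 partner was called with shRNA#2 and 0 with shRNA#4, where 2 of the 4 had an unadjusted p under 0.05. With 1 array left out at a time, the genes called ran from 1756 to 2982 with shRNA#2 and from 761 to 2166 between the hairpins, and the partners called from 1 to 2 with shRNA#2, 0 to 0 with shRNA#4 and 0 to 2 between the hairpins. Each such fit held fewer arrays; the cause of the changes was not tested. Over the partners' comparisons 156 values kept direction and side of the threshold, 23 lost their call, 0 gained one and 1 turned; over the other genes with values given these numbers were 2847, 423, 15 and 15.

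Turned values were all uncalled or near 0, apart from MST1R. DUSP5 between the hairpins ran from -0.0029 to 0.11 with 1 array left out. Against scramble with shRNA#2 the leave-out ranges were -0.17 to 0.31 for CAPN6 (-0.037 after quantile normalization), -0.37 to 0.063 for IFIT1, -0.21 to 0.023 for JUN, -0.0066 to 0.22 for KRT18 and -0.045 to 0.019 for MAPKAPK3. With shRNA#4 they were -0.0018 to 0.01 for DCN (-0.0014 after quantile normalization, -0.0008 after array median centring), -0.15 to 0.063 for IFIH1 and -0.079 to 0.18 for LUM (-0.0076 after quantile normalization). MST1R was 0.0038 with shRNA#4 for 1 probe set on its own.

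Arrays share replicate numbers across groups, and their deviations correlated at 0.18, 0.12 and 0.20; with 2 numbers the arrays were taken to share only a number. With a replicate block the genes called were 3598 with shRNA#2, 4227 with shRNA#4 and 2637 between the hairpins, and no partner gained or lost a call.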

Other observations

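The JNK and p38 stress kinases can also induce ATF3. Of 14 measured genes among 21 listed, 4 rose and 1 fell with shRNA#2 (12.1% and 9.54% of all genes), and 3 rose and 2 fell with shRNA#4 (15.7% and 10.4% of all genes). Fewer rose with shRNA#2 whichever array was left out. With shRNA#4 fewer rose without any array except shRNA#4 replicate 2, without which more rose. The fall with shRNA#2 was not called without scramble replicate 2 or shRNA#2 replicate 1. Fewer fell with shRNA#4 without either scramble array or either shRNA#4 array. MAP2K6, an activator of p38, was the only one called higher with shRNA#2 than with shRNA#4, where 6.64% of all genes were higher. It rose with shRNA#2 by 0.53 ± 0.07 (limma adjusted p = 0.00474), differed from scramble by -0.11 ± 0.07 with shRNA#4 (adjusted p = 0.368), and differed between the hairpins by 0.64 ± 0.07 (adjusted p = 0.00478). MAPKAPK3 was the only one called lower (-0.22 ± 0.06, adjusted p = 0.0476), where 8.63% of all genes were lower. The MAPKAPK3 call was lost in 11 of the 14 alternatives. MAP3K20, the ribotoxic stress kinase ZAK, rose by 0.64 ± 0.07 with shRNA#2 and 0.54 ± 0.07 with shRNA#4 (adjusted p = 0.002 and 0.00229). MAP3K5, the kinase ASK1, fell by 0.58 and by 0.52 on the log2 scale (SE 0.11; adjusted p = 0.0158 and 0.0177), and lost its calls without scramble replicate 2 or shRNA#2 replicate 1 for shRNA#2 (adjusted p up to 0.0656), and without scramble replicate 2 or either shRNA#4 array for shRNA#4 (up to 0.0808).

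Hairpins can induce an interferon response, and of 8 measured interferon genes among 14 listed 1 rose and 2 fell with shRNA#2, while 1 fell with shRNA#4; 21.6% and 26.1% of all genes were called in either direction. With shRNA#4 none rose in the limma fit, nor at an unadjusted p under 0.05. RIGI, an RNA sensor, fell by 0.97 with shRNA#2 and by 0.70 with shRNA#4 on the log2 scale (SE 0.09; adjusted p = 0.0017 and 0.00325). IFIH1, another sensor, rose with shRNA#2 by 0.35 ± 0.09 and IRF7 fell by 0.35 (SE 0.08; adjusted p = 0.0359 and 0.0304), and both calls were lost without scramble replicate 1 or either shRNA#2 array. IFIT1 was not called, at -0.15 ± 0.16 and -0.32 ± 0.16 (adjusted p = 0.593 and 0.204).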
